A study of Nothobranchius furzeri with 12 samples.

Results

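Tail fins of Nothobranchius furzeri, the turquoise killifish of African seasonal pools, contain a group of very abundant transcripts whose mean levels lay close together in red tails, yellow tails and female tails. The group was chosen from the measured values. Entries were ranked by their mean normalized count over the 12 libraries, the first 300 were taken, and those whose 4 group means of log2(value + 1) spanned less than 0.7 from lowest to highest were kept. This left 92 of 300 entries, out of 20788 in the table. The small span between group means is therefore how the members were picked and not a finding. It was not tested. The roles of the genes were not used by the rule. Membership under other scalings applies the same rule to the same libraries, so it shows dependence on the processing and is not separate evidence of steadiness. The limit was not set on the scatter of replicates around their group means. Such scatter widens the span, however, so the rule favoured entries of low scatter.

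The libraries fall into 4 groups of 3 biological replicates. Red tails (MZCS002_R) and female tails (MZCS002_F) came from the strain MZCS002, and yellow tails (GRZ_BELL_Y) and female tails (GRZ_BELL_F) from the strain GRZ-BELL. For every sample the coloured part of the tail fin, or its counterpart in females, was used. The 2 strains also carry a different further number in their labels, whose meaning is not given. No treatment, age or pooling is stated in the labels. Each tail colour came from 1 strain, so colour cannot be told apart from strain, and within a strain coloured tails could be compared only with female tails. The labels do not state the sex of the coloured fish, so within a strain colour and any difference of sex cannot be told apart.

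A fish fin is a thin fold of stratified epidermis over bony rays, connective tissue, vessels and nerves, with pigment cells beneath the epidermis. Epidermal cells are held together by desmosomes, which anchor keratin filaments, and by adherens junctions, which anchor actin. Transcripts present at high and similar levels in many cells, such as those for actin, ribosomal proteins and the glycolytic enzyme GAPDH, are often used as internal standards when other genes are measured. Fewer cells of a type and less RNA per cell cannot be told apart in bulk tissue.

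Recovered depth was 5495553 to 17053983 reads per library, with the lowest in MZCS002 female 2. That library stood apart, with 16400 entries having a read against 17644 to 18667 in the others, so spans, replicate SDs and ranges without it are given where they move by over 1.5 times. The tissue label fitted its markers: the summed epidermal markers (7 of 13 in the table) ran from 566797 to 1661426 normalized counts per library and the markers of fin ray bone and connective tissue (11 of 16) from 58633 to 404157. Muscle markers (5 of 15) summed to 28.7 to 391, while 14 of 14 pigment cell markers were found, at 17252 to 110188 in coloured tails and 1606 to 3078 in females. None of the pigment cell, muscle, blood (4 of 9 in the table), nerve (6 of 11) or vessel (4 of 8) markers found was a member. Listed markers without a match, among them the blood markers hbba1, hbba2, hbaa1 and hbae1.1, could not be looked up. Nor could genes of these cells be sought among the 43 members without a symbol. For the muscle, blood, nerve and vessel markers found, the rank limit fixed their absence from the members in advance. The summed markers of each stayed below the mean value at the last place taken, 4889, in every library.

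The 92 members took 16.3% to 23.9% of all normalized counts in a library, and the keratin gene krt5 alone took 4.07% to 10.6%. Their mean levels ran from 4904 to 1018430 normalized counts. Values are read counts corrected for library size but not for transcript length, so the order of genes by level is an order of reads and not of molecules. Among the members, 49 had a gene symbol, 30 only a locus number and 13 no match in the gene table. The fewest reads behind any member's value in any library was 552, for b2m, where counting error alone is 4.26%. Counting error was therefore small beside the replicate scatter described here.

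Span and threshold sat as follows. The spans of the members ran from 0.10 to just under 0.7 with a median of 0.53, while the other 208 entries of the top 300 ran from 0.70 to 8.69 with a median of 1.40. Just inside the limit lay col17a1b, col5a1, ddx5, rpl22 and zgc:86896, with spans of 0.70, 0.70, 0.70, 0.69 and 0.69. Just outside lay litafd (0.70), gsta.1 (0.71), apnl (0.71), eif5a (0.73) and gapdhs (0.73). At the rank limit, the mean value was 4889 at the last place taken and 4880 at the next. Of the other 208 entries, 51 spanned less than 1 and 34 spanned 2 or more. The set has no gap at its edge.

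Replicate spread is the SD of log2(value + 1) around the group means, pooled over the 4 groups with 8 residual degrees of freedom. It was 0.16 to 0.87 among the members with a median of 0.33, against a median of 0.57 among the other entries of the top 300 and 0.46 over the 15170 entries tested, those averaging 10 normalized counts or more. Because a limit on the span favours low scatter, the lower median of the members is partly built in and only describes them. In 23 of 92 members the replicate SD was larger than the member's own span. A span is a range over 4 means and an SD is not a range. Replicates could therefore differ by more than the span in other members too, and this count does not give their number. The value in the highest library was 1.51 to 7.41 times that in the lowest, with a median of 2.25. Of the 92 members, 27 (29.3%) stayed within 2-fold over all 12 libraries, where 10.6% of all tested entries did. The range includes the differences between group means that the rule bounded, so this comparison only describes the members. A range of more than 4-fold was found in 11 members (12%), and in 3 without MZCS002 female 2.

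**Figure D1:**
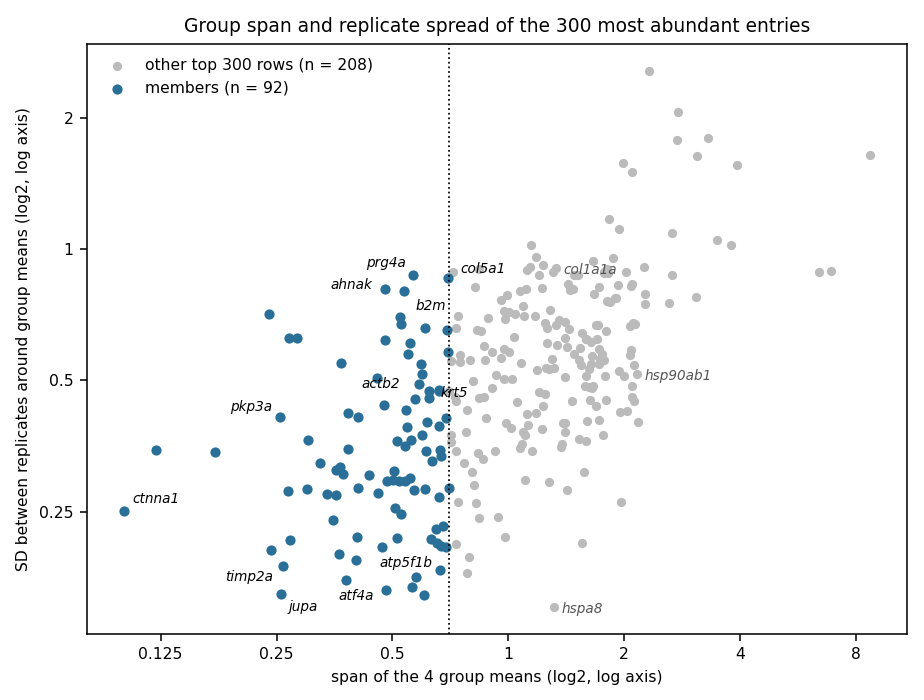
Each point is 1 of the 300 most abundant entries, with the span of its 4 group means (log2) on the x axis and the pooled SD between replicates (log2) on the y axis, both on log axes, and the dotted line at the limit of 0.7. Members (blue, n = 92) spread vertically from 0.16 to 0.87, while hspa8, not a member, combined a replicate SD of 0.15 with a span of 1.31.

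The list of keratins and epidermal junctions, which also holds annexin genes and ahnak, gave the largest named block. It was drawn up with earlier results of these data known. Of 35 tested entries in the list of keratins and epidermal junctions, 12 were in the top 300 and 10 of these were members. The 35 as a whole were not steadier in their replicates, with a median replicate SD of 0.54 against 0.46 over all tested entries. Their median span was 0.79, against 0.85. The list's other entries in the top 300 were perp (span 0.82) and ppl (span 1.08, and 0.61 without MZCS002 female 2). Over all entries of the top 300, 92 of 300 were members.

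The smallest 3 spans of the list were those of the junction genes ctnna1, jupa and pkp3a. The gene ctnna1 encodes alpha-catenin, which links cadherin junctions to actin, and had the smallest span of all 92 members, 0.10. Its normalized counts were 6036, 4902 and 6525 in red tails, against 7513, 4941 and 5800 in MZCS002 females. They were 6195, 5929 and 4755 in yellow tails and 4684, 6116 and 6695 in GRZ-BELL females. The groups overlapped in all 4 comparisons, and the 12 libraries lay within 1.60-fold. The red minus yellow difference was 0.05 (95% interval -0.51 to 0.60) and that of red tails minus MZCS002 females -0.05 (95% interval -0.61 to 0.50), in log2 units from the limma fit. Without MZCS002 female 2 its span was 0.24.

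Plakoglobin, encoded by jupa, is shared by desmosomes and adherens junctions. Levels of jupa were 15119, 11798 and 13085 in red tails, 17537, 15626 and 14526 in MZCS002 females, 15987, 11611 and 13905 in yellow tails and 14483, 14942 and 14625 in GRZ-BELL females. All 12 libraries lay within 1.51-fold, the smallest range of any member, with a span of 0.26 and a replicate SD of 0.16. The plakophilin gene pkp3a, of the desmosomal plaque, had the same span (0.26) but a wider replicate SD of 0.41. It was at 9437, 6213 and 6225 in red tails, with 8665, 4199 and 7043 in MZCS002 females, then 8732, 4292 and 6723 in yellow tails and 7648, 7595 and 7381 in GRZ-BELL females. MZCS002 female 2 and yellow 2 were the low libraries. For the desmoplakin gene dspa, whose product ties the plaque to keratin filaments, the counts were 13809, 7551 and 10431 in red tails, with 10374, 15702 and 9186 in MZCS002 females. The yellow tails had 11514, 5046 and 14867 and the GRZ-BELL females 16909, 9485 and 11586. Its span was 0.37, but yellow 2 lay lowest and the libraries ranged over 3.35-fold.

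The keratins were abundant and less even. The most abundant transcript of the whole table was krt5, in mammals the type II keratin of basal epidermal cells, at 467669, 796563 and 1016068 in red tails, with 1586844, 1009163 and 792169 in MZCS002 females. Yellow tails had 1273594, 865877 and 1254778 and GRZ-BELL females 1291089, 712801 and 1154539. Red 1 was the lowest and MZCS002 female 1 the highest library, 3.39-fold apart, and the groups overlapped in each of the 4 comparisons. The summed epidermal markers were also lowest in red 1 (566797) and highest in MZCS002 female 1 (1661426). Most of that sum is krt5 itself, so this match was built in and tells nothing about the other epidermal markers. Of the other members among these markers, epcam and dspa were higher in red 1 (56342 and 13809) than in MZCS002 female 1 (32146 and 10374). The member krt18a.1 was lower in red 1 (8865) than in MZCS002 female 1 (15258). Whether the amount of epidermis in the piece of fin contributes was not tested. For krt18a.1, a type I keratin of simple epithelia, values ran from 4208 in MZCS002 female 2 to 20996 in GRZ-BELL female 3, with a replicate SD of 0.67 (0.45 without MZCS002 female 2). The epithelial adhesion gene epcam was at 56342, 21354 and 19540 in red tails, where red 1 stood far above the other 2. It was at 32146, 12493 and 21582 in MZCS002 females, 19649, 15074 and 25317 in yellow tails and 27545, 27437 and 27007 in GRZ-BELL females, and the yellow tails lay below the GRZ-BELL females without overlap.

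Membrane-binding genes completed this block, and the basement membrane gene col17a1b, from the list of collagens and matrix, is described with them. The annexin genes anxa1a and anxa5b, whose proteins bind membranes in the presence of calcium, had spans of 0.66 and 0.27. Counts of anxa5b ran from 4888 to 8718 over the 12 libraries, and those of anxa1a from 37608 to 82127. Collagen XVII, encoded by col17a1b, is a transmembrane collagen of hemidesmosomes, which fix basal cells to the basement membrane. It was at 8721 ± 757 in red tails and 14384 ± 3410 in yellow tails (mean ± SD, n = 3 each), without overlap, and its difference of -0.70 (95% interval -1.32 to -0.08) set its span just under the limit. The gene ahnak, which encodes a very large scaffold protein under the membrane, was at 24949, 93375 and 15303 in MZCS002 females and between 13066 and 43070 in the other libraries. The single value of 93375 in MZCS002 female 2 lay far above all others, and without that library the replicate SD fell from 0.81 to 0.51.

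**Figure D2:**
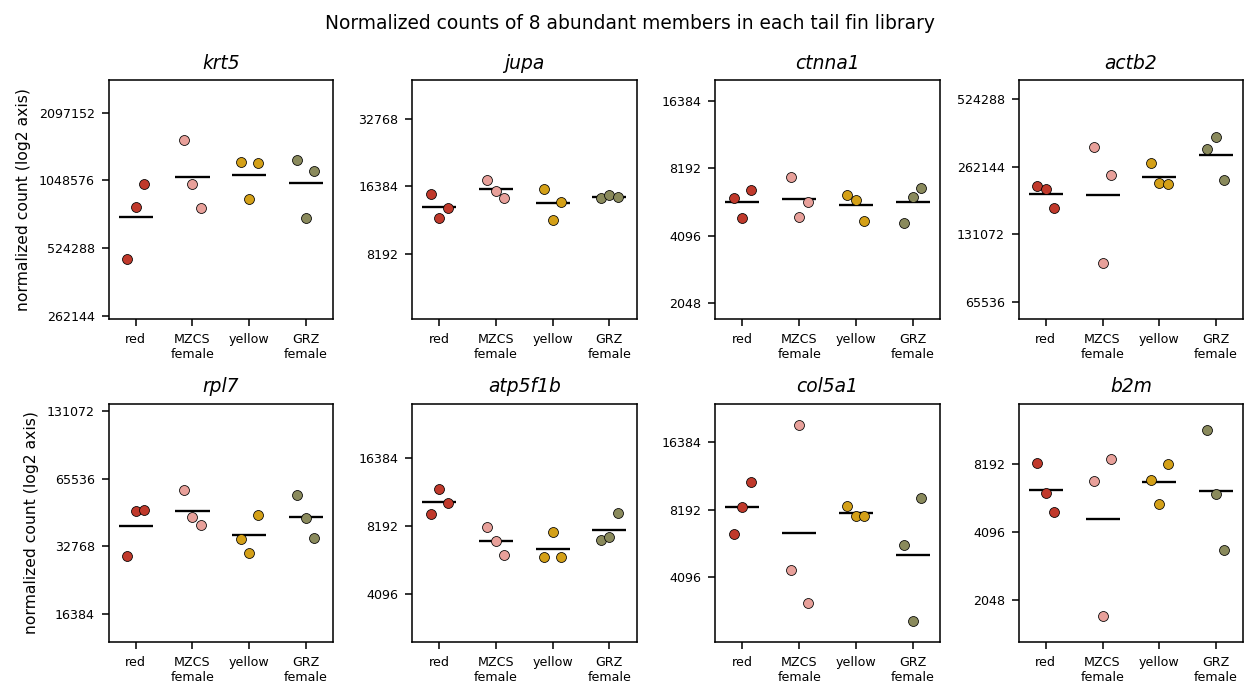
Normalized counts (log2 axis, the same number of doublings in each panel) of 8 members, with 1 point per library and a line at each group's mean on the log2(value + 1) scale. The points of jupa and ctnna1 sit within 1.51-fold and 1.60-fold, while those of col5a1 and b2m range over 7.41-fold and 6.68-fold (4.15-fold and 3.41-fold without MZCS002 female 2).

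Actin and its binding proteins gave 4 of the 7 entries of their list in the top 300. The beta-actin gene actb2 was at 214785, 208796 and 172088 in red tails, with 319511, 97992 and 241409 in MZCS002 females. It was at 272248, 220966 and 219406 in yellow tails and 314392, 356401 and 229072 in GRZ-BELL females. MZCS002 female 2 was the lowest of the 12 libraries by far. The replicate SD was 0.49 with it and 0.25 without it, and the range fell from 3.64-fold to 2.07-fold. The 3 red tails lay below the 3 yellow tails, at a red minus yellow difference of -0.26 (95% interval -1.45 to 0.94), but the groups overlapped with equal totals (-0.15) and the sign turned under quantile normalization (0.05).

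Filamins cross-link actin filaments, and the members flna and flnbl of this family had spans of 0.54 and 0.44. Red tails had 9599, 8329 and 9118 normalized counts of flna and yellow tails 14371, 9951 and 11253, again without overlap, while MZCS002 females had 11038, 6848 and 13561 and GRZ-BELL females 12912, 12503 and 13847. The actin-recycling gene cap1 ranged from 4768 to 10771. Its replicate SD of 0.28 became 0.15 without MZCS002 female 2, and its range 1.46-fold. The entries of this list in the top 300 that were not members were cfl1l (span 1.65), arpc2 (1.18) and myl12.1 (1.39). Seen over all 12 libraries, MZCS002 female 2 was the low one for actb2, flna and cap1.

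Translation genes split. Ribosomal protein genes made up 67 of the top 300, yet only 3 of these 67 were members: rpl7, rpl18 and rpl22. The other 64 had spans from 0.78 to 2.66 with a median of 1.63, and 63 of these 64 had their lowest group mean in red tails and 63 their highest in MZCS002 females. With equal totals these counts were 63 and 60, and under quantile normalization 61 and 49. The members rpl7, rpl18 and rpl22 encode proteins of the large ribosomal subunit. Red tails had 29745, 46828 and 47556 counts of rpl7 and MZCS002 females 57986, 44286 and 40680. Yellow tails had 35376, 30683 and 45076 and GRZ-BELL females 55643, 43903 and 35789. All groups of rpl7 overlapped, within 1.95-fold, and its red minus MZCS002 female difference was -0.22 (95% interval -0.98 to 0.55). For rpl18 and rpl22 the highest library was MZCS002 female 2, at 64728 and 14281, and without it their spans were 0.48 and 0.34 in place of 0.62 and 0.69. The highest group mean of rpl7 was also that of MZCS002 females, but its lowest was that of yellow tails.

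Of the 7 entries for translation factors in the top 300, the member was eif4a1b, which encodes an RNA helicase of the cap-binding complex. It was at 11171, 15441 and 20933 in red tails, with 23178, 15526 and 17436 in MZCS002 females, against 19343, 18768 and 18405 in yellow and 20110, 20018 and 18135 in GRZ-BELL female tails. The last 2 groups were tight, and red 1 was the lowest library. Among RNA-binding genes, 3 of 5 in the top 300 were members. The gene ybx1, whose protein packages mRNA, was at 30067, 39312 and 39646 in red tails, with 59903, 34914 and 52233 in MZCS002 females. Yellow tails had 45128, 37901 and 39198 and GRZ-BELL females 53934, 44795 and 35734, a span of 0.41 that was 0.63 without MZCS002 female 2. The splicing regulator gene khdrbs1a spanned 0.32, and 0.14 without MZCS002 female 2. The RNA helicase gene ddx5 lay near the limit at 0.70, with values from 2106 to 7314 and a replicate SD of 0.58.

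**Figure D3:**
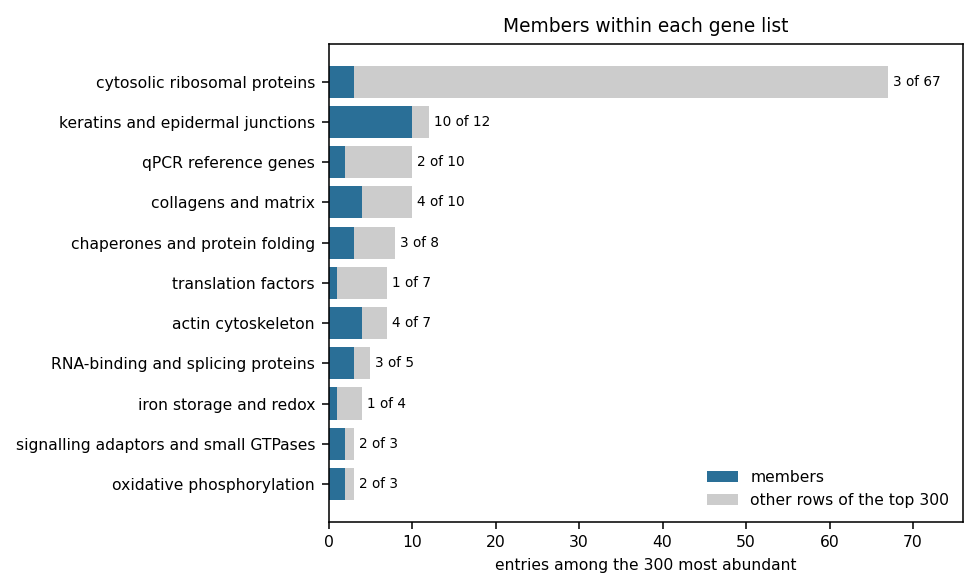
Bars give, for each gene list with at least 2 entries among the 300 most abundant, the number that were members (blue) and the number that were not (grey). The list of keratins and epidermal junctions had 10 of 12 and the cytosolic ribosomal proteins 3 of 67.

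Mitochondrial and protein-folding members were fewer. Both ATP synthase genes in the top 300 were members. The catalytic beta subunit gene atp5f1b was at 9236, 11962 and 10411 in red tails and 5966, 7729 and 5977 in yellow tails, without overlap. It was at 8141, 7015 and 6110 in MZCS002 females, which also lay below the red tails, and 7078, 7289 and 9334 in GRZ-BELL females. Its differences were 0.69 (95% interval 0.15 to 1.22) for red minus yellow tails and 0.57 (95% interval 0.04 to 1.11) for red tails minus MZCS002 females, neither called by limma. The rotor subunit gene atp5mc3a had 5066, 8065 and 10273 in red tails, with red 1 far below the other 2, and 9335, 8219 and 6435 in MZCS002 females. Yellow tails had 6126, 6103 and 7656 and GRZ-BELL females 6408, 5698 and 6448, and the span was 0.36.

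The chaperonin subunit genes cct2 and cct7 belong to the ring-shaped complex that folds actin and tubulin. Their proteins work in 1 complex. The order of the group means was not the same for cct2 and cct7, but the groups of cct2 overlapped in every comparison. These values therefore do not show that the genes differ in group order. The gene cct7 was highest in red tails, at 7107, 8045 and 5219, and lowest in MZCS002 females, at 5171, 3803 and 3912, with 4303, 4466 and 4164 in yellow tails and 5968, 5650 and 5103 in GRZ-BELL females. Red tails lay above both MZCS002 females and yellow tails without overlap, and yellow tails lay below GRZ-BELL females without overlap. For cct2 the lowest mean was that of red tails, 4644 ± 1102, and the highest that of GRZ-BELL females, 6697 ± 1198 (mean ± SD, n = 3 each). The libraries of these groups overlapped too, and red tails against GRZ-BELL females was not among the comparisons fitted. The cyclophilin gene ppib, of a folding enzyme in the secretory pathway, peaked in MZCS002 female 2 at 28321, against 7541 to 16901 elsewhere. Its span was 0.46 and 0.19 without that library. Heat shock genes of the same list were not members: hsp90ab1 spanned 2.16 and hspa8 1.31.

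The signalling and stress members included some of the least variable transcripts. The gene ywhaba, of the 14-3-3 family of phosphoprotein-binding adaptors, had a replicate SD of 0.17. Red tails had 9472, 7399 and 8566 and yellow tails 5509, 6077 and 5556, so the groups did not overlap, at 0.56 (95% interval 0.06 to 1.06). The stress-response transcription factor gene atf4a had 8497, 7552 and 6864 in red, 7576, 5833 and 6479 in MZCS002 female, 6468, 5223 and 5922 in yellow and 7269, 7359 and 5797 in GRZ-BELL female tails. Its replicate SD was 0.17 and its range 1.63-fold, with red tails again above yellow tails in every library. Calpastatin, the inhibitor of calpain proteases encoded by cast, had a replicate SD of 0.18 and ranged from 5525 to 11179. The calmodulin gene calm1a, of the main calcium sensor protein, spanned 0.38 and was highest in MZCS002 female 2 at 14178. The S100-family gene s100v2 ran from 14646 to 33898, and the glutathione peroxidase gene gpx1a, which removes peroxides, from 2672 to 8732. Further members with a symbol were itm2bb, of the integral membrane protein 2 family (span 0.56), and zgc:86896 (0.69).

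Matrix and secreted genes held members of low and of high replicate spread. The inhibitor of matrix metalloproteinases encoded by timp2a was among the flattest members, at 5820, 7029 and 5459 in red tails, with 6977, 5355 and 6150 in MZCS002 females. Yellow tails had 6020, 5282 and 4208 and GRZ-BELL females 6078, 5879 and 5978, with a span of 0.26 and a replicate SD of 0.19. The groups overlapped in every comparison. In contrast, the fibrillar collagen gene col5a1 was at 6419, 8432 and 10912 in red tails, 4414, 19467 and 3159 in MZCS002 females, 8519, 7663 and 7696 in yellow tails and 5710, 2626 and 9206 in GRZ-BELL females. MZCS002 female 2 was 4.41 times as high as the next female of that strain, and without it the span of col5a1 was 1.17, outside the limit, and its range 4.15-fold. The summed markers of fin ray bone and connective tissue also differed between replicates, from 58633 in GRZ-BELL female 2 to 404157 in yellow 1. GRZ-BELL female 2 was likewise the lowest library for col5a1, which is itself part of that sum. Whether the amount of ray tissue in the piece contributes was not tested. The keratan sulfate proteoglycan gene lum ran from 3096 to 8388. The lubricin gene prg4a, of a surface-coating proteoglycan, had the largest replicate SD of all members, 0.87. Red tails alone ran from 4623 to 24006, with 10695, 6537 and 23328 in MZCS002 females, 10495, 11646 and 6833 in yellow and 6968, 14261 and 5692 in GRZ-BELL female tails.

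**Figure D4:**
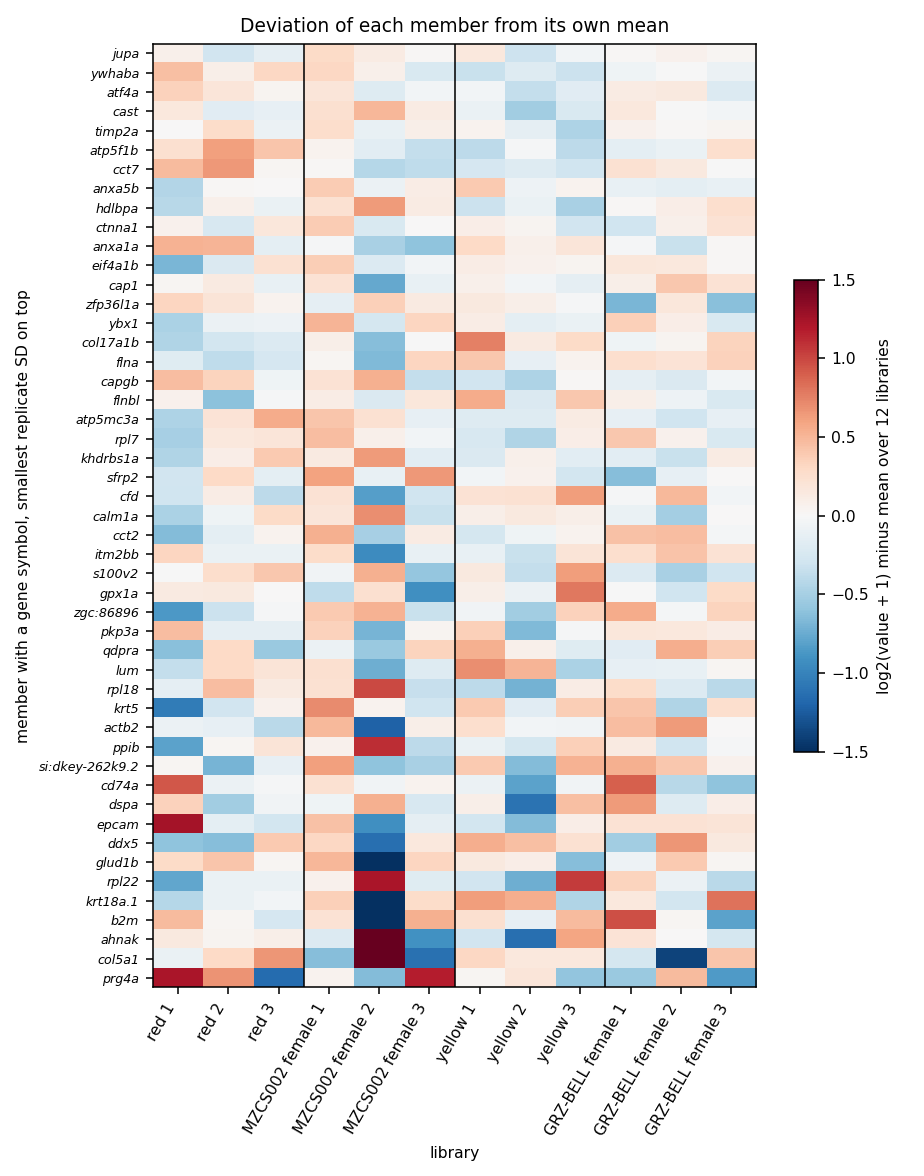
Colour gives log2(value + 1) minus the gene's own mean over the 12 libraries for the 49 members with a symbol (rows, ordered by replicate SD) in each library (columns, grouped by lines). The upper rows, from jupa, are pale throughout. In the lower rows the column of MZCS002 female 2 is strongly coloured for several genes, high for ahnak and col5a1 and low for glud1b, krt18a.1 and b2m. The bottom row, prg4a, is high in red 1 (24006) and MZCS002 female 3 (23328) and low in red 3 (4623).

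Immune genes were present among the members. Beta-2-microglobulin, encoded by b2m, is the light chain of MHC class I molecules. Its levels were 8271, 6085 and 5006 in red tails, 6898, 1735 and 8617 in MZCS002 females, 7005, 5445 and 8242 in yellow tails and 11597, 6055 and 3402 in GRZ-BELL females. MZCS002 female 2 lay lowest, the range was 6.68-fold (3.41-fold without it), and the replicate SD of 0.80 was larger than the span of 0.54 (0.31 without that library). The invariant chain gene cd74a, which serves MHC class II molecules, was highest in red 1 (21547) and GRZ-BELL female 1 (20916) and lay between 6464 and 13177 elsewhere. The summed immune markers (9 of 11 in the table, cd74a among them) were 19442 to 36624 in red tails, 14322 to 29320 in MZCS002 females, 14155 to 20195 in the 3 yellow tails and, in females of GRZ-BELL, 11892 to 33278. The highest libraries of that sum were also red 1 (36624) and GRZ-BELL female 1 (33278). There cd74a itself made up most of the sum, so this match tells nothing about the other immune markers. The part of immune cell number in these values was not tested.

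The remaining 8 members with a symbol, and cd74a, were named after their values were seen. The gene qdpra encodes dihydropteridine reductase, which recycles tetrahydrobiopterin, a compound made from the same precursor as the yellow pteridine pigments. It was at 3949, 7478 and 4150 in red tails, with 5734, 4155 and 7702 in MZCS002 females, and at 8822, 6392 and 5372 in yellow tails and 5429, 8867 and 7891 in GRZ-BELL females. The groups overlapped in all 4 comparisons. The glutamate dehydrogenase gene glud1b was at 2225 in MZCS002 female 2 and between 4106 and 8983 elsewhere, and its replicate SD of 0.62 became 0.29 without that library. The gene sfrp2, of a secreted modulator of Wnt signalling, had a span of 0.63, and 0.88 without MZCS002 female 2. The complement factor D gene cfd (0.66), the actin-capping gene capgb (0.48), the RNA-binding genes hdlbpa (0.63) and zfp36l1a (0.57), and si:dkey-262k9.2 (0.60) are given by their spans. For hdlbpa both coloured tails lay below the females of their strain without overlap, at -0.47 (95% interval -1.04 to 0.09) in MZCS002 and -0.42 (95% interval -0.99 to 0.14) in GRZ-BELL.

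The 43 members without a symbol had spans from 0.12 to 0.68 and replicate SDs from 0.16 to 0.71 with a median of 0.30, against a median of 0.35 for the members with a symbol. The locus LOC107397073 had the next smallest span after ctnna1, at 0.12, with values from 5673 to 11277. The locus LOC107386128 was the most abundant of them, at a mean of 182727 and a span of 0.36, or 0.17 without MZCS002 female 2. In the RefSeq gene order of assembly NfurGRZ-RIMD1, 79 members could be placed, and LOC107391533 and flna were the 1 pair of neighbouring protein-coding genes among them.

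Common reference genes were set against the members. The list of genes often used as standards in quantitative PCR also took in further gene copies at low mean counts. Among these were eef1a1l2 (117), insrb (87.5) and eef1a1a (12.6). Of the 20 tested entries on the list, 10 were in the top 300 and 2 of these, actb2 and b2m, were members. Without the rank limit, 6 of 20 had a span under 0.7, and 7 of 20 did without MZCS002 female 2. In the latter hprt1 was no longer among them, and ppiaa and gusb were. Over all tested entries, with all libraries, the span had a lower quartile of 0.56 and a median of 0.85. The glycolytic gene pgk1, ranked below the top 300 at a mean of 1642, was the flattest of the 20, with a span of 0.08 (0.19 without MZCS002 female 2), a replicate SD of 0.20 and a range of 1.60-fold. It was the 1 gene of the 20 that stayed within 2-fold in all libraries, where 10.6% of all tested entries did. Its values were 1375, 1611 and 2085 in red tails, 1644, 1854 and 1304 in MZCS002 females, 1603, 1736 and 1692 in yellow tails and 1560, 1627 and 1614 in GRZ-BELL females. The entry gapdhs spanned 0.73 with a replicate SD of 0.21. The ribosomal standards lay far from the limit: rpl13a spanned 2.12 and ranged over 9.92-fold (6.36-fold without MZCS002 female 2), rpl13 spanned 2.04, rplp0 1.37, rpl8 1.22, rpl19 1.58 and rps18 1.19. The cyclophilin gene ppiaa, also of a folding enzyme, ranged over 8.05-fold, but over 2.86-fold and with a span of 0.50 without MZCS002 female 2. Below the top 300, eif1axb spanned 0.46, insra 0.60, hprt1 0.68 (1.04 without MZCS002 female 2), gusb 0.70 (0.48 without it), lsm12b 0.77, insrb 0.92, polr2a 1.08, eef1a1l2 1.73 and eef1a1a, at a mean of only 12.6, 3.27.

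**Figure D5:**
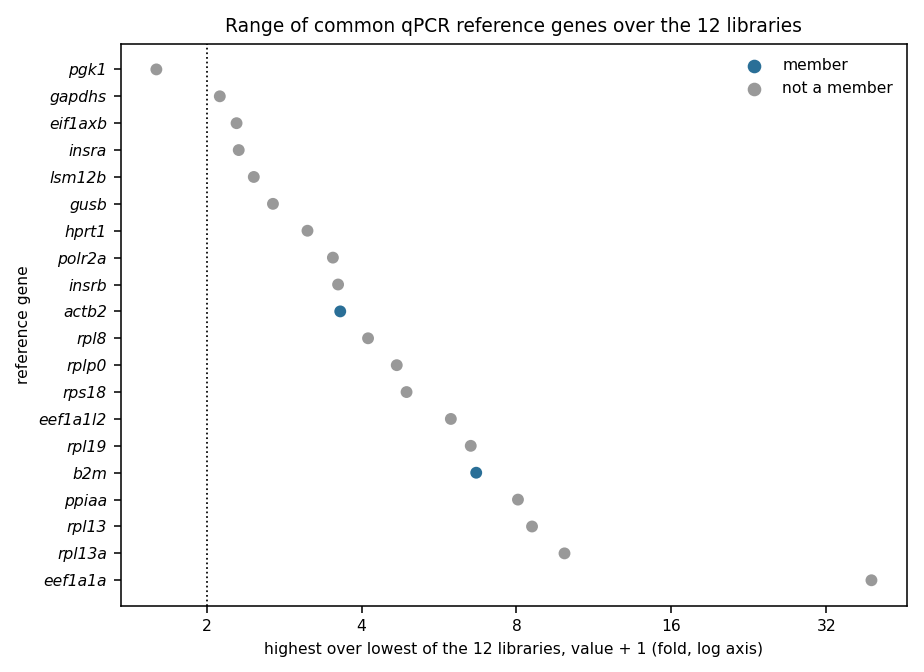
For each of 20 tested reference genes, the point gives the highest value + 1 over the lowest value + 1 of the 12 libraries (fold, log axis), blue for members and grey for the others, with a dotted line at 2-fold. The gene pgk1 lies left of the line at 1.60-fold, while the members actb2 and b2m lie at 3.64-fold and 6.68-fold (2.07-fold and 3.41-fold without MZCS002 female 2).

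Differences between groups were fitted with limma over all 15170 tested entries, with Benjamini-Hochberg adjusted p under 0.05 as the call. Because the rule used these group means, the counts only describe the members. Between red and yellow tails limma called 0 of 92 members, with 6 at an unadjusted p under 0.05, where 7.43% of all tested entries were called. Between the females of MZCS002 and GRZ-BELL it called 0 (1 at an unadjusted p under 0.05), where 1.74% of all entries were called. For red tails against MZCS002 females it called 0 (4 at an unadjusted p under 0.05), with 4.53% of all entries called, and for yellow tails against GRZ-BELL females 0 (1 at an unadjusted p under 0.05), with 1.84% called. At an unadjusted limma p under 0.05 were 24.8%, 15.6%, 22% and 12.3% of all tested entries, in the same order. In these 4 comparisons edgeR called 0 members, where it called 7.87%, 1.87%, 4.59% and 1.98% of all entries. DESeq2 called 5, 0, 3 and 1 members, where it called 15.5%, 5.33%, 11.6% and 4.69% of all entries. The 5 for red against yellow tails were atp5f1b, cct7, ywhaba and the unnamed entry XM_015959334, higher in red tails, and col17a1b, lower in them, with DESeq2 adjusted p from 0.0212 for atp5f1b to 0.0445 for col17a1b. For red tails against MZCS002 females they were cct7 and 2 members without a symbol. Without MZCS002 female 2, limma called 1 member for red against yellow tails, XM_015959334 (limma log2 difference 0.68, adjusted p = 0.0497), where 17.3% of all entries were called. It then called 0 members in the other 3 comparisons, where 2.37%, 7.69% and 3.59% of all entries were called. Under quantile normalization limma called 2, 0, 4 and 0 members, where it called 8.16%, 2.06%, 4.1% and 2.03% of all entries, and atp5f1b was among those higher in red tails in both comparisons of red tails.

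Members that were not called need not be equal between groups. The rule bounded these same differences, so the intervals of the chosen members need not cover the true difference at the stated rate. They are given as a description of the replicate spread around each estimate and do not show that groups are equal. The 95% interval of a member's difference, not adjusted for the number of members, reached 0.49 to 1.64 to either side of the estimate. The median was 0.66 on the log2 scale. These widths were the same in each of the 4 comparisons, since 1 spread per entry was pooled over all groups and each holds 3 libraries. All 4 intervals lay within a 2-fold difference in either direction for 23 of 92 members (25%), where this held for 12.1% of all tested entries, whose group means the rule did not bound. Those with a symbol were eif4a1b, jupa, cast, atp5mc3a, pkp3a, atf4a, anxa5b, timp2a, ctnna1 and khdrbs1a. For 12 of 92 members it reached over 1 to either side, so that a 2-fold difference could not have been bounded.

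Groups that did not overlap were found among members too. For red against yellow tails 17 of 92 members (18.5%) did not overlap, where 34.1% of all tested entries did not, and 11 of the 17 were higher in red tails. Between the females the count was 7 (7.61%, against 20.1% of all entries), for red tails against MZCS002 females 9 (9.78%, against 23.5%) and for yellow tails against GRZ-BELL females 17 (18.5%, against 25.9%). Of the 17 for yellow tails against GRZ-BELL females, 10 had a symbol. Higher in yellow tails were anxa1a, calm1a and anxa5b. Lower in them were epcam, itm2bb, hdlbpa, cap1, cast, ywhaba and cct7. In 56 of 92 members the groups overlapped in all 4 comparisons. The same share over all tested entries was not counted, and the rule bounded the group means, so this count only describes the members.

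The library farthest from its group mean was MZCS002 female 2 for 33 of 92 members (35.9%), where it was farthest for 41.6% of all tested entries. Its members moved in both directions, with 14 over 0.5 above their group mean (log2) and 18 over 0.5 below it. Red 1 was farthest for 12 members and MZCS002 female 3 for 10, while yellow 1 was farthest for none. Without MZCS002 female 2 the rule picked 114 members, 88 of the 92 among them. The 4 that left were col5a1, prg4a, sfrp2 and gpx1a, with spans of 1.17, 0.93, 0.88 and 0.91. The median replicate SD of the 92 fell from 0.33 to 0.28 without that library.

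A core of 38 members stayed under each way of applying the rule: with any 1 of the 12 libraries left out, with libraries scaled to equal totals, by quantile normalization or by TMM, with log2(value + 10), and with entries ranked by the median. Of these, 19 had a symbol. They were 5 of the 10 members from keratins and epidermal junctions (jupa, dspa, pkp3a, anxa5b and ctnna1), 3 of 4 from the actin cytoskeleton (flna, cap1 and flnbl), the RNA-binding genes ybx1 and khdrbs1a, and rpl7, eif4a1b, atp5mc3a, cct2, timp2a, calm1a, cast, atf4a and capgb. The keratins krt5 and krt18a.1, and both reference genes actb2 and b2m, were not in the core. Leaving out libraries alone kept 42 of the 92, and the 3 other scalings alone kept 64. All these settings reuse the values that the rule used, so the core only describes how membership depends on them.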

How the data were processed

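RNA from killifish tail fins was sequenced in 12 libraries. Per the submitters' processing notes, Trimmomatic, STAR, featureCounts and DESeq2 were used; no version, genome build or strand setting is named in them, so whether reads of overlapping or antisense genes were separated is not known here. The deposited values are a signal, read counts divided by size factors by the authors. Dividing by the step of the low values gave whole reads for 100% of values (tolerance 0.01), with 5495553 to 17053983 reads per library; edgeR on these called 7.87%, 1.87%, 4.59% and 1.98% of entries in the 4 comparisons, in the order of the report, and no member. Entry IDs were matched to symbols in RefSeq's gene table of assembly NfurGRZ-RIMD1.

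Log2(value + 1) of 15170 entries with a mean of at least 10 was fitted over 4 groups with limma 3.58.1 in R 4.3.3, with Benjamini-Hochberg adjustment. Recovered reads were tested with edgeR 4.0.16 and DESeq2 1.42.0. The fit was checked on simulated data. The spread of an entry was estimated once over all 4 groups. A p-value or interval for 2 groups therefore rests on the spread between replicates in all 12 libraries, 3 a group.

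The members and gene lists were chosen with earlier results of these data known. Named were the members highest in mean, smallest in span, at either end of replicate SD or next to the limit, those on lists, all reference genes and the 6 most abundant non-members, which were col1a1a, col1a1b, hsp90ab1, hspa8, rps2 and apoeb. Alternatives were other scalings, another pseudocount, ranking by the median, a replicate block, edgeR, DESeq2 and leaving out each library.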

Additional observations from a re-analysis of the deposited data

How the results depend on the processing

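The number of members was 92, and 75 to 114 with 1 library left out, 93 with equal totals, 102 with quantile normalization and 91 with TMM. These sets were not the same. They shared with the 92 members 70 to 88 with 1 library left out, 73 with equal totals, 67 with quantile normalization and 90 with TMM. The median replicate SD of the members was 0.28 to 0.34 with 1 library left out and 0.36, 0.37 and 0.33 under these 3 scalings; these spread values were added after seeing the data. Quantile normalization gave 2 members called for red against yellow tails and 4 for red tails against MZCS002 females, with 8.16% and 4.1% of all entries called, and DESeq2 gave 5 and 3, and 1 for yellow tails against GRZ-BELL females. Leaving out 1 library gave 0 to 1 members for red against yellow tails and 0 in the other comparisons. As a share of the 15170 entries, limma called 7.43%, 1.74%, 4.53% and 1.84% for red against yellow tails, female against female, red tails against MZCS002 females and yellow tails against GRZ-BELL females, and DESeq2 15.5%, 5.33%, 11.6% and 4.69%. With 1 library left out these shares ran from 2.25% to 17.3%, 0.725% to 2.37%, 1.12% to 7.69% and 0.982% to 3.59%, with each highest share without MZCS002 female 2. The lowest came without yellow 1, GRZ-BELL female 1, red 2 and yellow 2. Equal totals moved the median log2 difference of all entries to 0.09, -0.23, 0.26 and -0.09, and the called entries higher and lower in the first group from 584 and 543 to 668 and 364, from 124 and 140 to 85 and 179, and from 411 and 276 to 647 and 134 in the first 3 comparisons. The cause of these shifts was not tested. Same-numbered libraries correlated at -0.308 to 0.17 in their deviations from the group means, and differently numbered ones at -0.366 to 0.38. With 3 libraries a group, these values show no sign of pairing by number but cannot exclude it. A replicate block gave 2.29% of entries for red tails against MZCS002 females, 5.5%, 1.38% and 1.58% in the others, and 0 members. Of 1088 recomputed spans of 68 named genes, 19 moved by more than the gene's replicate SD. With 3 libraries a group, the intervals of the members' differences reached a median of 0.66 to either side, which limits what could be detected.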

Other observations

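The rule split the 300 most abundant entries by their group means, so the order of those means is a description here. The lowest mean was that of red tails in 31 of 92 members (33.7%) and in 62.5% of the other 208 entries of the top 300, and the highest that of MZCS002 females in 30 members (32.6%) and 56.7% of the others. Ribosomal protein genes made up 64 (30.8%) of these 208. The chaperone gene hspa8 had the smallest replicate SD of the top 300, 0.15, with a span of 1.31.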
